A study of Mus musculus with 9 samples.

Results

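Sox transcription factors are DNA-binding proteins that share the high mobility group (HMG) box first described in Sry. The 10 Sox genes described here are Sox4, Sox5, Sox6, Sox7, Sox8, Sox9, Sox11, Sox12, Sox17 and Sox18. They were taken by name, and every probe set with one of these symbols alone was used, which gave 37 of the 45037 probe sets tested and 10 of the 18193 genes named on the array. No probe set listed one of them among several symbols, so 0 probe sets were lost to shared annotation. The other 10 Sox genes on the array had 16 probe sets and served for comparison.

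The RNA came from mouse cardiomyocytes made in culture from embryonic stem cells, and the question of the series was how far such cells mature with time in culture. There were 9 arrays, 3 each at day 10, day 20 and day 30 of differentiation. All groups share the synp line, which was derived from R1 embryonic stem cells (129X1 x 129S1) and carries the puromycin resistance gene PAC under the Ncx1 promoter, so each group rests on 1 line. All groups were also given the same cytokines, which were FGF10, bFGF, VEGF, BMP4 and Activin A, and all were under puromycin from day 7, which kills cells in which the cardiac Ncx1 promoter is silent. Day 10 cells therefore stand for cells early after selection began, and no unselected or heart tissue sample was analysed here. The labels do not say whether the 3 arrays of a day came from separate differentiations, so p-values measure only the spread between these arrays, which may be technical.

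Sox proteins bind short AT-rich sites through the HMG box, bend the DNA and act with partner factors. They are sorted into groups by sequence: Sox4, Sox11 and Sox12 form group C, Sox5 and Sox6 group D, Sox8 and Sox9 group E, and Sox7, Sox17 and Sox18 group F. Group C is known from embryonic progenitors, neurons and the outflow tract of the heart, group D and Sox9 from cartilage, and group F from endothelium.

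Promoter sequences were in the RefSeq table (GRCm38.p6) for 6 of the 10 genes. Those of Sox11 and Sox4 are shown because, of these close relatives, Sox11 had the largest change of the 10 genes between day 10 and day 30 and Sox4 did not pass the test. Each run holds the 250 bases before the annotated start, written in the direction of transcription from the minus strand, at chr12:27342719-27342968 for Sox11 and chr13:28953700-28953949 for Sox4. Capitals mark the CCAAT box, searched on both strands as CCAAT and ATTGG.
Sox11: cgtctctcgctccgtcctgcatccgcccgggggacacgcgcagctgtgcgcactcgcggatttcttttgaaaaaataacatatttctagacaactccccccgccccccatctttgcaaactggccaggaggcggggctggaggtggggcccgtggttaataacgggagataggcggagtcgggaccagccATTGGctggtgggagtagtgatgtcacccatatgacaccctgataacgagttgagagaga
Sox4: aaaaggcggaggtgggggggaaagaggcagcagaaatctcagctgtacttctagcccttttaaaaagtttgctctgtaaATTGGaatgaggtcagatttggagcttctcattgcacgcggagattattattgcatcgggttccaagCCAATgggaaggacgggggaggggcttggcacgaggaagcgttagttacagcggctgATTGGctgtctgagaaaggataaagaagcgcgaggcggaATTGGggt
The Sox11 window held 1 CCAAT box, whose first base lay 60 bases before the start. The Sox4 window held 4, whose first bases lay 171, 104, 47 and 8 bases before the start. Of the 32851 promoter windows of this length, 33.8% held a CCAAT box. The GC box GGGCGG, searched on both strands, occurred 2 times in the Sox11 window and 0 times in the Sox4 window, and 32.7% of all windows held it. The core of Sox binding sites, AACAAT on either strand, occurred 0 times in both windows and in 9.42% of all windows. These counts describe letters only and name no site in use.

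The labelled cell type was checked against 14 defining genes of cardiomyocytes, such as the cardiac troponins, myosins and Nkx2-5. Averaged over these genes, the log2 signal ranged from 11.54 to 12.34 over the day 10 arrays, from 12.23 to 12.54 over the day 20 arrays and from 12.39 to 12.48 over the day 30 arrays. Of the 14, 2 rose from day 10 to day 30 and 0 fell, and 5 rose without day 10 replicate 3. With all arrays, 10.3% of all genes rose in this comparison and 8.91% fell. Markers of other cells moved too. Of 18 fibroblast and matrix genes measured, 15 rose and 0 fell, and their mean log2 signal went from a range of 7.58 to 7.97 at day 10 to a range of 11.34 to 11.59 at day 30. Of 19 cell cycle genes, 6 fell and 0 rose. In this group of genes day 10 replicate 3 stood apart, with a mean log2 signal of 8.17 against 9.91 and 10.26 in the other day 10 arrays, and without it 19 fell. Without day 10 replicate 1 or 2, or day 30 replicate 2 or 3, 2 fell, without day 20 replicate 3 it was 3, and it was 0 when day 30 replicate 1 was dropped. Leaving out dim probe sets gave 12. Of 12 pluripotency genes, 7 fell and 0 rose, and 2 fell with dim probe sets left out. That setting did not test Pou5f1, Dppa4 and Zfp42, which were among the 7. Day 10 replicate 3 also had the lowest correlations with its own group (r = 0.966 and 0.975 over all probe sets, against 0.984 to 0.991 for the other pairs within a day). Spiked poly-A controls had a mean log2 signal of 5.24 on day 10 replicate 2 and 5.09 on day 10 replicate 3, against 5.91 to 6.69 on the other arrays. Because it stands apart, the values of the Sox genes without it are given beside the results that it moves.

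Signals are log2 values as the authors deposited them, so a difference of 1 is a 2-fold change. A gene was counted by its brightest probe set, the one with the highest mean over the 9 arrays, and the levels of different genes were not ranked, since probe sets differ in brightness. Differences between paired Sox genes are read only for their change over the days. Of the 10 Sox genes, 2 changed between day 10 and day 30 at an adjusted p under 0.05 (limma, Benjamini-Hochberg over all probe sets). Sox11 fell and Sox9 rose. Over all genes 19.2% passed in this comparison, 10.3% higher and 8.91% lower, so the share of the Sox genes is near the background. By probe set, 8 of 37 passed, where 15.1% of all probe sets did: the 6 of Sox11 were lower (7.73% of all) and 2 of the 3 of Sox9 were higher (7.4% of all). From day 10 to day 20 only Sox11 passed among the 10 genes, where 11.6% of all genes did, and its 6 probe sets were the only ones of the 37 to pass, where 9.02% of all did and 4.51% were lower. From day 20 to day 30, 0 of the 10 genes passed in limma, where 0.154% of all genes did. Of the 10, 2 had an unadjusted limma p under 0.05, and the share of all genes at that limit was not counted. With day 20 and day 30 fitted as pairs by replicate number, 1 (Sox9) passed. In the unpaired fit a single probe set of the 37, of Sox11, passed between these days, where 0.135% of all did. The moderated F test over all days called Sox11 and Sox9, 2 of 10 genes (15.4% of all genes) and 8 of 37 probe sets (11.9% of all). The test of the later against the earlier change called 0 Sox genes and 0 of their probe sets (limma, 0 with an unadjusted p under 0.05), where 0.231% of all genes and 0.133% of all probe sets did. The median log2 difference between day 30 and day 10 was -0.32 over the 10 genes and -0.03 over all genes.

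**Figure D1:**
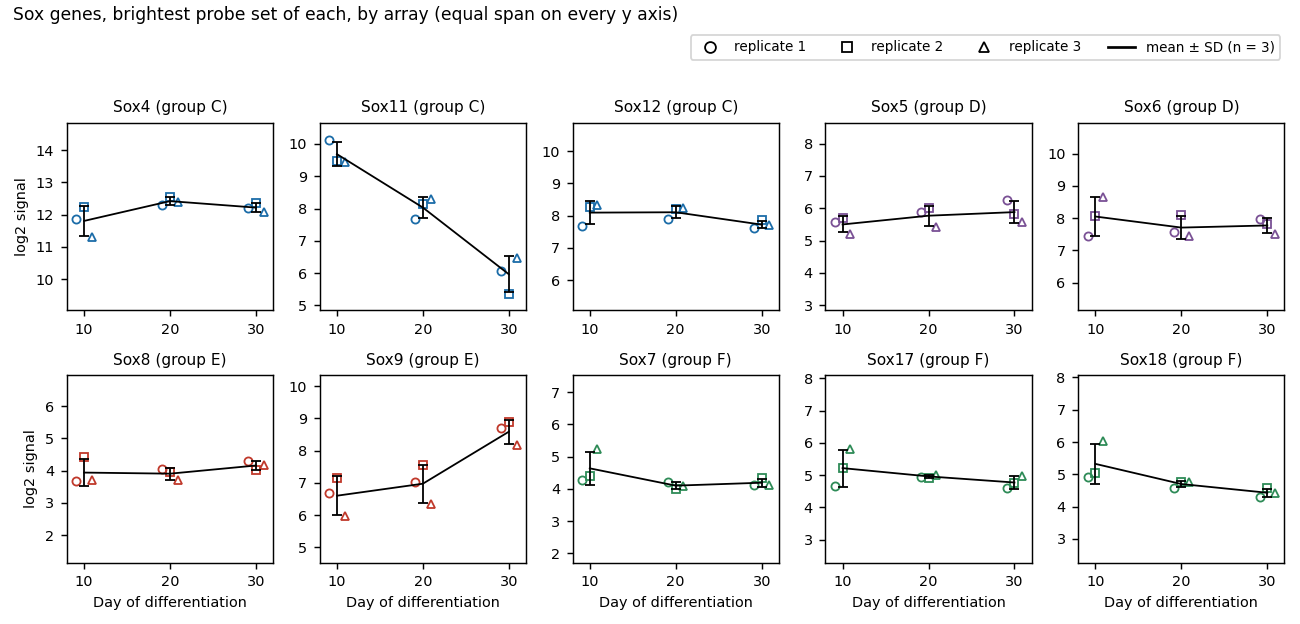
The log2 signal of the brightest probe set of each of the 10 Sox genes is plotted by day of differentiation, with each array as a point (circle, square and triangle for replicates 1, 2 and 3) and a line through the means with SD bars (n = 3). Sox11 falls from a mean of 9.69 to 5.96 and Sox9 rises from 6.60 to 8.59, while the day means of the other 8 genes stay within 1 unit of their day 10 mean; every panel spans the same number of log2 units.

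Sox11, a group C factor of embryonic progenitors and young neurons, fell from day 10 to day 20 and from day 10 to day 30. Its brightest probe set (1436790_a_at) had log2 signals of 10.13, 9.48 and 9.46 at day 10, of 7.68, 8.13 and 8.29 at day 20, and of 6.05, 5.37 and 6.47 at day 30. All arrays of an earlier day lay above all arrays of a later day. The mean fell 13.2-fold from day 10 to day 30 (log2 difference -3.72, SE 0.31, n = 3 a day, limma adjusted p = 0.00040). This drop passed in all 18 alternative settings run, with log2 differences between -3.98 and -2.89.

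The mean was lower on each later day, although the step from day 20 to day 30 did not pass. The log2 difference was -1.65 from day 10 to day 20 (SE 0.31, limma adjusted p = 0.017) and -2.07 from day 20 to day 30 (SE 0.31, limma adjusted p = 0.060), and the later change did not pass a test against the earlier one (limma adjusted p = 0.81). Leaving out day 20 replicate 1 (-1.48, limma adjusted p = 0.055) or day 20 replicate 2 (-1.70, limma adjusted p = 0.058) ended the call for the first interval. The second interval passed in 5 of 19 alternative settings. In RNA from whole cultures, fewer cells that express a gene and less RNA per cell cannot be told apart, and this holds for all Sox genes here.

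The other 5 probe sets of Sox11 gave the same direction. The mean log2 signals of 1453125_at were 8.61 at day 10, 7.16 at day 20 and 5.13 at day 30, and those of 1453002_at were 8.27, 7.14 and 5.30. The latter also passed between day 20 and day 30 (log2 difference -1.84, SE 0.21, limma adjusted p = 0.029), where 0.00666% of all probe sets were lower. With the replicate number as a block the limma adjusted p was 0.059 over the 9 arrays and 0.043 over the arrays of day 20 and day 30 alone. In the latter fit, chosen after the data were seen, 1453125_at passed too (-2.03, limma adjusted p = 0.045). Over the 6 probe sets the drop from day 10 to day 30 ran from -3.72 to -1.80, and the smallest belonged to the dimmest, 1431225_at. All 6 separated each pair of days with no overlap of arrays, where 32% of all probe sets did so between day 10 and day 30, 28.1% between day 10 and day 20, and 19% between day 20 and day 30.

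Sox4, the closest relative of Sox11 in group C, did not pass in any interval. Its brightest probe set (1433575_at) had log2 signals of 11.87, 12.22 and 11.32 at day 10, of 12.30, 12.55 and 12.41 at day 20, and of 12.22, 12.35 and 12.08 at day 30. Day 10 replicate 3 was the lowest of the 9 arrays, and the day 20 arrays lay above all day 10 arrays. The log2 difference was 0.61 between day 20 and day 10 (95% interval 0.14 to 1.09, limma adjusted p = 0.11) and 0.41 between day 30 and day 10 (95% interval -0.07 to 0.89, limma adjusted p = 0.23). Without day 10 replicate 3 the former was 0.37 and the latter 0.17 (limma adjusted p = 0.47 for the latter). Without day 10 replicate 2 the latter was 0.62, and also without day 10 replicate 2 the difference between day 20 and day 10 passed. The interval excludes a drop of the size seen for Sox11.

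Sox4 had 8 probe sets, of which 6 had a mean above the median of all probe sets (5.54). Their differences between day 30 and day 10 ran from -0.05 to 0.47, and 0 of the 8 passed (lowest limma adjusted p 0.23). In 1419157_at the arrays of day 30 were at 10.08, 8.39 and 9.80, so replicate 2 stood below the others of its day. That array also had the largest gap between the 3' and 5' probe sets of actin, a sign of RNA quality, at 0.79 log2 units against 0.23 to 0.59 on the other arrays, and the part of RNA quality in this value was not tested.

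**Figure D2:**
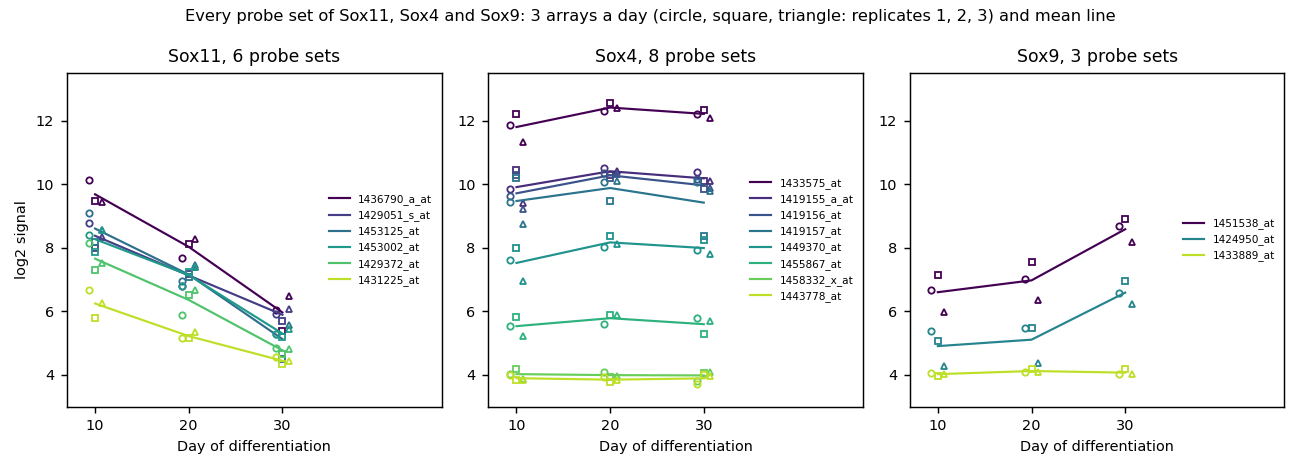
Log2 signal is plotted by day of differentiation for every probe set of Sox11 (6), Sox4 (8) and Sox9 (3), with 1 point per array (circle, square and triangle for replicates 1, 2 and 3) and a line through the day means. All lines of Sox11 slope down. Those of Sox4 change less, and its brightest probe set rises by 0.61 from day 10 to day 20. Of the 3 lines of Sox9, 2 rise after day 20 while 1433889_at stays between 3.96 and 4.18.

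Sox12, the third group C gene, had log2 signals of 7.69, 8.27 and 8.32 at day 10, of 7.89, 8.19 and 8.23 at day 20, and of 7.62, 7.85 and 7.70 at day 30 in its brightest probe set (1455562_at). Day 10 replicate 1 was low among the day 10 arrays and overlapped those of day 30. The log2 difference between day 30 and day 10 was -0.37 (95% interval -0.78 to 0.04, limma adjusted p = 0.21). Without day 10 replicate 1 it was -0.57 (limma adjusted p = 0.034), and with array weights, which count each array by its scatter, it was -0.49 (limma adjusted p = 0.037). In the other 2 probe sets the differences between day 30 and day 10 were smaller, and they did not pass.

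Group C genes diverged from each other over the days. The log2 signal of Sox4 minus that of Sox11 went from 2.12 ± 0.55 on the day 10 arrays to 4.39 ± 0.25 on those of day 20 and to 6.25 ± 0.69 on those of day 30 (mean ± SD, n = 3). It changed over the 3 days (two-sided exact permutation test over 280 splits, p = 0.0036, the smallest the design allows, adjusted p = 0.014 over 8 pairs within groups). The difference between Sox11 and Sox12 changed by -3.35 from day 10 to day 30 (exact permutation, adjusted p = 0.014). Both held in each of the 11 alternatives run for pairs. Sox4 against Sox12 changed by 0.78 (exact permutation, adjusted p = 0.034), and this was lost with the mean of probe sets (0.38, exact permutation adjusted p = 0.63) and without day 10 replicate 3, any array of day 20 or any array of day 30 (exact permutation adjusted p between 0.074 and 0.14). These tests use the same arrays as the fit and add no separate evidence.

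Of 15 measured genes of neurons or linked to group C factors, 6 fell from day 10 to day 30 and 0 rose, with a median log2 difference of -0.52 against -0.03 over all genes, where 8.91% of all genes fell. With dim probe sets left out, which takes Neurod1 out of the test, 3 fell. The list's mean log2 signal ranged from 6.29 to 6.99 over the day 10 arrays, then from 6.01 to 6.07 (day 20) and from 5.94 to 6.01 (day 30). Map1b, a microtubule-associated protein of growing neurites, fell by 1.61 (SE 0.24, limma adjusted p = 0.0046), and Mex3a, an RNA-binding protein, fell by 0.88 (SE 0.14, limma adjusted p = 0.0048). Tead2, a TEAD factor of the Hippo pathway reported as a target of Sox4 and Sox11, fell by 1.22 (SE 0.20, limma adjusted p = 0.0056). Neurod1, a neuronal differentiation factor, had means of 4.36 at day 10 and 3.77 at day 30, both below the median of all probe sets, and fell by 0.59 (limma adjusted p = 0.013). These drops occurred beside those of the cell cycle and pluripotency genes given above, and their part in it was not tested. Between 4 and 9 of the 15 fell when single arrays were left out, the 9 without day 10 replicate 3 and the 4 without day 10 replicate 1 or any array of day 30.

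Among all genes with a mean above the median of genes (9091 compared), Igf2bp1 and Sinhcaf had the pattern most like Sox11 over the 9 arrays. Likeness was the root mean square distance between log2 values centred on their own mean, which was 0.518 for Igf2bp1 and 0.526 for Sinhcaf, against a median of 1.56. Igf2bp1, a fetal RNA-binding protein, had mean log2 signals of 9.81 at day 10, 8.0 at day 20 and 6.94 at day 30. Sinhcaf, a subunit of the Sin3-HDAC complex, had means of 9.40, 7.63 and 6.43.

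Sox9, a group E factor best known as a driver of cartilage formation and also needed in heart valves, rose between day 10 and day 30. Its brightest probe set (1451538_at) had log2 signals of 6.68, 7.16 and 5.97 at day 10, of 7.02, 7.55 and 6.36 at day 20, and of 8.69, 8.90 and 8.17 at day 30. All day 30 arrays lay above all others, while day 10 and day 20 overlapped. The mean was 3.95-fold higher at day 30 than at day 10 (log2 difference 1.98, SE 0.38, limma adjusted p = 0.011). This passed in all 18 alternative settings, with differences of 1.24 to 2.26.

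The step from day 20 to day 30 was 1.61 (SE 0.38, limma adjusted p = 0.21) and that from day 10 to day 20 was 0.37 (SE 0.38, limma adjusted p = 0.61). Neither passed in the main fit. The step from day 20 to day 30 did in a fit of these 2 days paired by replicate number (limma adjusted p = 0.043). That fit was chosen after the data were seen. With the replicate number as a block over all 9 arrays the step did not pass (limma adjusted p = 0.052). The test of the later against the earlier change gave a limma adjusted p of 0.48, so a difference between the intervals was not shown. The second probe set, 1424950_at, had mean log2 signals of 4.90 at day 10, 5.11 at day 20 and 6.59 at day 30, and the difference of 1.69 passed (SE 0.38, limma adjusted p = 0.021). The call ended when day 10 replicate 2 was left out (1.76, limma adjusted p = 0.052), and also when day 30 replicate 1 (1.69, limma adjusted p = 0.061) or day 30 replicate 2 was (1.5, limma adjusted p = 0.072). The third, 1433889_at, lay between 3.96 and 4.18 on all arrays and differed by 0.05 (limma adjusted p = 0.75), so the probe sets of Sox9 disagree. It was dim, and only 1 of the 3 probe sets had a mean above the median of all probe sets (5.54). Whether so dim a probe set could show a rise was not tested.

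Of 23 measured cartilage genes linked to Sox9, Sox5 and Sox6, 14 rose from day 10 to day 30 and 0 fell. Their median log2 difference was 1.66 against -0.03 over all genes, where 10.3% of all genes rose. The list was chosen with earlier results of these data known, so its count is no independent test and does not measure Sox9 activity. Averaged over the list, log2 signals ranged from 5.28 to 5.40 over the day 10 arrays, from 5.86 to 6.38 over those of day 20 and from 6.92 to 7.73 over those of day 30. The count was 9 without day 10 replicate 2 and 9 when only the arrays of the 2 days were fitted, and it lay between 9 and 15 over all single arrays left out.

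Comp, a matrix protein of cartilage and tendon, had log2 signals of 5.17, 4.84 and 4.61 at day 10, of 10.31, 10.39 and 9.58 at day 20, and of 12.20, 12.83 and 12.70 at day 30. Its difference between day 30 and day 10 was 7.71 (SE 0.26), with most of it present at day 20. Acan, the large proteoglycan of cartilage, rose by 4.52 (SE 0.38, limma adjusted p = 0.00040), and its arrays stood at 8.35 to 10.18 already at day 20. Matn4, a matrilin of the extracellular matrix, rose by 2.11 (SE 0.25, limma adjusted p = 0.0018). Epyc, a small leucine-rich proteoglycan of growth cartilage, rose by 0.99 (SE 0.13, limma adjusted p = 0.0024), from a mean of 3.55 to one of 4.54, which is below the median of all probe sets. Col2a1, the main collagen of cartilage and a direct target of Sox9, was chosen after its values were seen. It stood at 6.76, 5.35 and 8.35 at day 10 and at 11.41, 11.59 and 10.66 at day 30, a rise of 4.40 (SE 0.74, limma adjusted p = 0.0070).

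**Figure D3:**
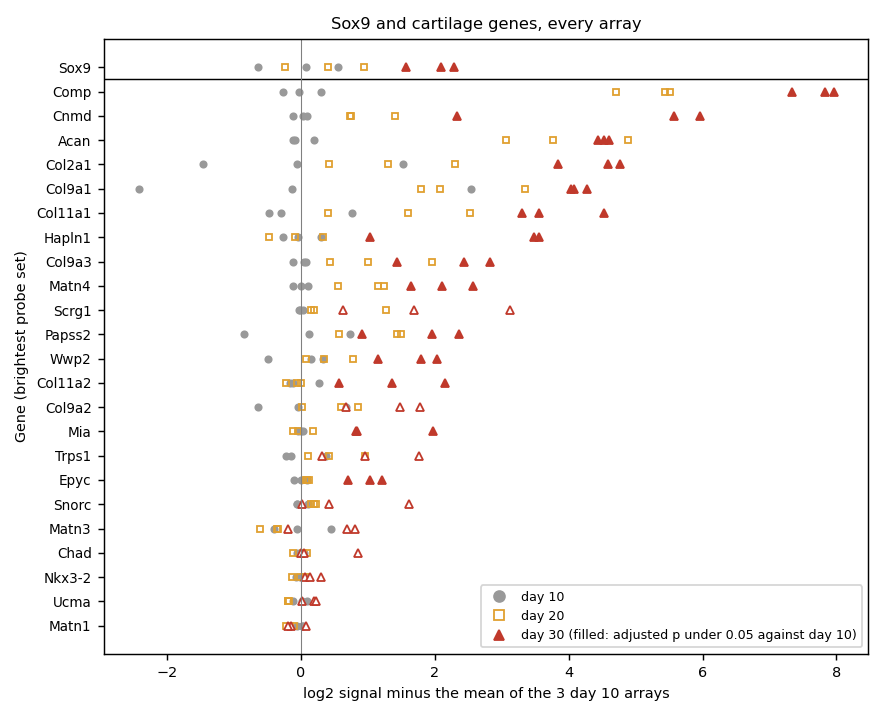
For Sox9 and 23 cartilage genes (brightest probe sets), the log2 signal of each array minus the mean of the 3 day 10 arrays is plotted, with day 10, day 20 and day 30 as circles, squares and triangles; filled triangles mark an adjusted p under 0.05 between day 30 and day 10. The filled triangles of Sox9 and 14 cartilage genes lie right of 0, while Comp and Acan are far right of 0 at day 20, when Sox9 overlaps its day 10 arrays.

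Genes of valve mesenchyme and of matrix also rose. Among all genes, 10.3% rose from day 10 to day 30 and 8.91% fell. Of 13 genes of valve mesenchyme, 6 rose and 0 fell (median log2 difference 1.18), and 3 rose without day 30 replicate 1, without day 30 replicate 2 or with dim probe sets left out. The last of these settings did not test Scx, which was among the 6. Postn, the matricellular protein periostin, rose by 4.59 (SE 0.51, limma adjusted p = 0.0013), and Cthrc1, a secreted protein of matrix-forming cells, rose by 4.60 (limma adjusted p = 0.0056). The fibroblast and matrix list, with 15 of 18 genes higher, had a larger median difference, 3.59. Of 12 genes of neural crest and glia, tissues that also use Sox9, 2 rose (S100b by 1.64 and Snai2 by 2.55) and 1 fell (Foxd3, by 0.34), with a median of -0.17. Without day 30 replicate 2 or 3 only 1 of them rose, and the call on Foxd3 was lost without day 10 replicate 2, day 20 replicate 2 or 3, or any array of day 30. The part of fibroblast-like cells in the rise of Sox9 was not tested.

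Wwp2 and Gstm1 had the patterns most like Sox9, at distances of 0.364 and 0.397 against a median of 1.03 over 9091 genes and 9 arrays. Wwp2, a ubiquitin ligase that also belongs to the cartilage list and whose gene hosts miR-140, had mean log2 signals of 8.10, 8.51 and 9.76 at day 10, 20 and 30. Gstm1, a glutathione transferase, had means of 7.88, 8.58 and 9.81.

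Sox8, the other group E gene, had 1 probe set (1435438_at), dim on all arrays. Its log2 signals were 3.69, 4.41 and 3.71 at day 10, 4.06, 3.95 and 3.70 at day 20, and 4.30, 4.01 and 4.16 at day 30. The days overlapped. Day 30 minus day 10 was 0.22 (95% interval -0.24 to 0.68, limma adjusted p = 0.53). With day 10 replicate 1, 2 or 3 left out it was 0.095, 0.46 and 0.11, array weights gave -0.070, and it passed in none of these. The difference between Sox8 and Sox9 changed by -1.76 (exact permutation, adjusted p = 0.034 over 8 pairs), and this was lost with the mean of probe sets (exact permutation adjusted p = 0.050), and when day 10 replicate 3, day 20 replicate 1 or 2, or day 30 replicate 1 or 2 was left out (exact permutation adjusted p between 0.057 and 0.10).

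**Figure D4:**
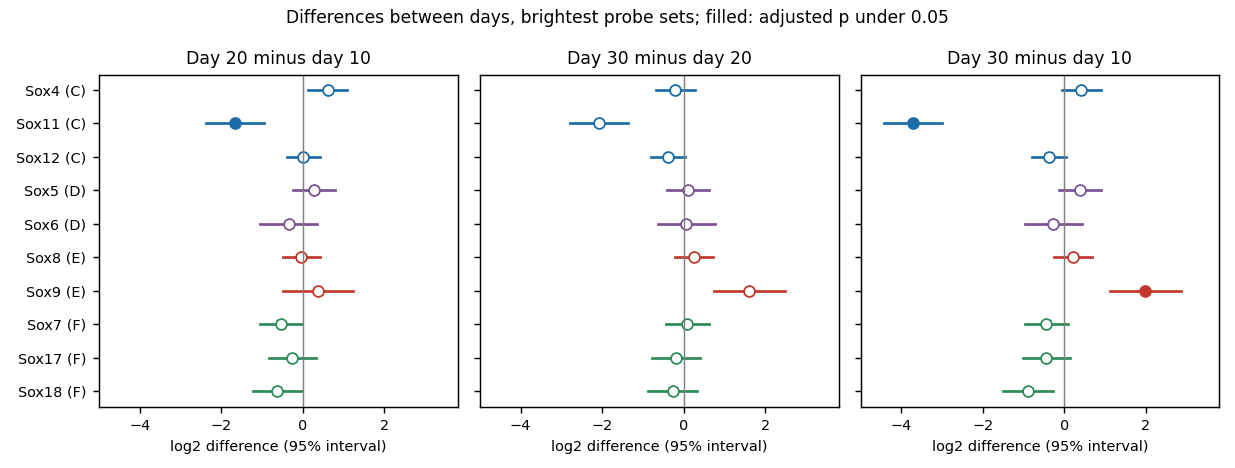
Log2 differences between days for the brightest probe set of each Sox gene are shown with 95% intervals from limma (letters give the group); filled points have an adjusted p under 0.05. Filled points belong to Sox11 between day 20 and day 10 (-1.65) and between day 30 and day 10 (-3.72), and to Sox9 between day 30 and day 10 (1.98).

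Sox5 and Sox6, the group D factors that lack an activation domain and act with Sox9 in cartilage, did not pass in any interval. The brightest probe set of Sox5 (1432189_a_at) had log2 signals of 5.59, 5.69 and 5.22 at day 10, of 5.90, 6.0 and 5.41 at day 20, and of 6.26, 5.81 and 5.57 at day 30. The days overlapped, and replicate 3 was the lowest on each day. From day 10 to day 30 the difference was 0.38 (95% interval -0.13 to 0.90, limma adjusted p = 0.31). It was 0.24 without day 10 replicate 3, 0.19 without day 30 replicate 1, 0.22 with array weights and 0.14 with the mean of probe sets, and it passed in none of these. Over the 7 probe sets of Sox5 it ran from -0.32 to 0.65, and 0 passed. The largest, of 1455535_at, came with arrays between 4.82 and 5.65 at day 10 and between 5.23 and 6.09 at day 30.

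Sox6, which also represses slow fibre genes in skeletal muscle and embryonic globin genes in red cells, had log2 signals of 7.45, 8.06 and 8.64 at day 10, of 7.57, 8.10 and 7.45 at day 20, and of 7.98, 7.83 and 7.51 at day 30 in its brightest probe set (1427677_a_at). Day 10 replicate 3 was the highest array. From day 10 to day 30 the difference was -0.28 (95% interval -0.97 to 0.42, limma adjusted p = 0.61), without day 10 replicate 3 it was 0.02, and without day 10 replicate 1 it was -0.58. Over the 4 probe sets, which all lay above the median of all probe sets, it ran from -0.42 to 0.24. The difference between Sox5 and Sox6 did not pass over the days (change 0.66, exact permutation, adjusted p = 0.22), but did without day 10 replicate 1 (1.01, exact permutation adjusted p = 0.040).

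Of 11 slow muscle and embryonic globin genes known to be repressed by Sox6, 1 rose from day 10 to day 30 and 0 fell. Their median difference was 0.50, and 10.3% of all genes rose and 8.91% fell in the same comparison. The mean log2 signal of the list was 10.00 to 10.55 at day 10 and 10.34 to 10.75 at day 30. Atp2a2, the calcium pump of the cardiac and slow muscle sarcoplasmic reticulum, rose by 0.92 (SE 0.25, limma adjusted p = 0.043). That call was lost without any single array of day 20 or day 30, and without day 10 replicate 3 the list had 3 genes higher and 1 lower. Values that did not pass were 1.07 for Myh7b and 1.49 for Myl2, both muscle myosin subunits, and -0.82 for the tropomyosin Tpm3. The globin genes Hbb-y and Hbb-bh1 had means between 3.93 and 4.22 on every day.

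The group F genes, known for their roles in endothelial and lymphatic cells, were dim and shared a high day 10 replicate 3. Of the probe sets of Sox7 (2), Sox17 (2) and Sox18 (1), 0 had a mean above the median of all probe sets (5.54). Sox18, which switches on lymphatic fate, had log2 signals of 4.91, 5.03 and 6.03 at day 10, of 4.59, 4.75 and 4.75 at day 20, and of 4.30, 4.57 and 4.41 at day 30 (1449135_at). Each day lay above the next with no overlap, where 36.1% of all genes did not overlap between day 10 and day 30, 31.8% between day 10 and day 20, and 21.4% between day 20 and day 30. The difference between day 30 and day 10 was -0.89 (95% interval -1.5 to -0.29) and missed the threshold (limma adjusted p = 0.056). It passed in 6 of 17 alternative settings, among them the fits without day 10 replicate 1 (-1.10, limma adjusted p = 0.038) and without day 10 replicate 3 (-0.54, limma adjusted p = 0.013).

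Sox7, an early endothelial factor, had log2 signals of 4.27, 4.41 and 5.23 at day 10, of 4.20, 4.0 and 4.09 at day 20, and of 4.13, 4.33 and 4.11 at day 30 (1416564_at). The day 20 arrays lay below those of day 10, and day 30 overlapped with both. Day 30 minus day 10 was -0.45 (95% interval -0.97 to 0.08, limma adjusted p = 0.24), and -0.15 without day 10 replicate 3.

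Sox17, a factor of arterial endothelium and of definitive endoderm, had log2 signals of 4.65, 5.21 and 5.79 at day 10, of 4.95, 4.91 and 5.01 at day 20, and of 4.59, 4.76 and 4.97 at day 30 (1421657_a_at). The days overlapped. Day 30 minus day 10 was -0.45 (95% interval -1.03 to 0.14, limma adjusted p = 0.29). It was -0.16 without day 10 replicate 3 and passed without day 10 replicate 1 (-0.73, limma adjusted p = 0.048). The second probe set, 1429177_x_at, read 5.24 on day 10 replicate 3 and 3.55 to 4.18 on the other arrays. Of the 3 pairs in group F, Sox7 against Sox18 changed by 0.45 (exact permutation, adjusted p = 0.034), which was lost without day 10 replicate 3, day 20 replicate 1 or 3, or any array of day 30 (exact permutation adjusted p between 0.057 and 0.12). The other 2 pairs did not pass (exact permutation adjusted p = 0.23 and 0.10), although Sox17 against Sox18 did without day 10 replicate 2 (0.59, exact permutation adjusted p = 0.040).

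Many but not all endothelial and lymphatic genes were also high on day 10 replicate 3. Of 22 measured, 12 had their highest signal on that array, where 15.2% of all genes did. Their lowest signal was there for 1 of the 22, where it was for 13.1% of all genes. Another 5 were highest on day 30 replicate 2, where 12.4% of all genes were. The mean log2 signal of the 22 on day 10 replicate 3 was 6.33, against 5.62 and 6.03 on the other day 10 arrays. It was 5.76 to 5.88 at day 20 and 5.83 to 6.02 at day 30. Cdh5 and Pecam1, junction proteins that define endothelium, and Emcn and Tie1, membrane proteins of endothelium, were chosen after their values were seen. Cdh5 stood at 4.03, 4.90 and 6.85 at day 10 and at 3.95 to 4.40 later, and Pecam1 at 4.35, 5.38 and 6.18 at day 10 and at 4.30 to 4.62 later. Emcn and Tie1 both read 5.91 on day 10 replicate 3. From day 10 to day 30, 1 of the 22 rose and 2 fell (median -0.22), where 10.3% of all genes rose and 8.91% fell. The ephrin Efnb2 fell by 1.09 (SE 0.15, limma adjusted p = 0.0032), the VEGF receptor Kdr fell by 1.13 (limma adjusted p = 0.021), and the ETS factor Erg rose by 1.27 (limma adjusted p = 0.017). The adhesion molecule Vcam1 differed by 2.91 and did not pass (limma adjusted p = 0.053). Without day 10 replicate 1, 6 of the 22 fell, and without day 10 replicate 2 or any array of day 30, 1 did. The count of genes that rose was 2 without day 10 replicate 2 or 3 and 0 without day 30 replicate 1 or 3. The part of endothelial cells in the group F signals was not tested.

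**Figure D5:**
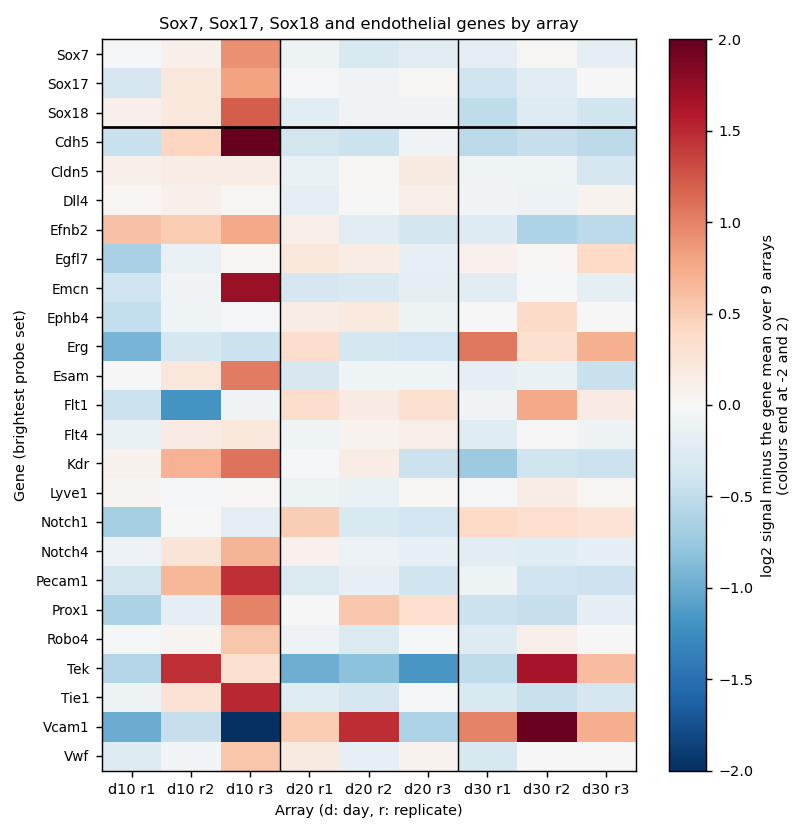
The heat map shows the log2 signal of Sox7, Sox17, Sox18 and 22 endothelial and lymphatic genes (brightest probe sets) on each of the 9 arrays, minus the mean of each gene over the arrays, on a colour scale that ends at -2 and 2. The column of day 10 replicate 3 is red for all 3 Sox genes and for Cdh5, Pecam1, Emcn and Tie1. Of the 22 genes, 12 are highest there and 1 is lowest there.

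Endoderm genes, checked because Sox17 also marks endoderm, were mostly dim. Of 17 measured, 1 rose (Epcam, an epithelial adhesion protein, by 1.49, limma adjusted p = 0.0022) and 1 fell (Hhex, a homeobox factor of endoderm and endothelium, by 0.67, limma adjusted p = 0.041). From day 10 to day 30, 10.3% of all genes rose and 8.91% fell. The call on Hhex was lost without day 10 replicate 1 or 2, any array of day 20, or day 30 replicate 3. The mean log2 signal of the list was 5.05 to 5.22 at day 10 and 5.02 to 5.16 at day 30. With the mean of the probe sets of each gene, the Epcam difference was -0.0014, so its probe sets disagree.

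Among the other 10 Sox genes, 1 fell from day 10 to day 30 and 0 rose, where 8.91% of all genes fell and 10.3% rose. Their median difference was -0.00. Sox2, a pluripotency and neural factor of group B, had log2 signals of 4.05, 6.07 and 5.89 at day 10, of 3.24, 3.25 and 3.47 at day 20, and of 3.47, 3.23 and 3.44 at day 30. All arrays after day 10 lay below all day 10 arrays. The difference between day 30 and day 10 was -1.96 (SE 0.46, limma adjusted p = 0.026), and the call was lost without day 10 replicate 2 or any array of day 30 (-2.0 to -1.59, limma adjusted p between 0.066 and 0.078). Sox3 (-0.18), Sox13 (-0.14) and Sox10 (0.06) did not pass (limma adjusted p = 0.23, 0.38 and 0.65), and Sox10 was -0.036 with the mean of probe sets.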

How the data were processed

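The members and gene lists were chosen with earlier results of these data known. RNA was measured on 9 one-colour 3' expression arrays. Per the labels, biotin was put in with a 3' IVT kit. The authors deposited 1 log2 value per probe set and array. Neither the normalization nor the log base is stated in the sources used here, and base 2 was inferred from the range of 2.77 to 14.52. Array medians lay between 5.48 and 5.56, so values were used as deposited. Depth has no meaning for arrays, and 3 arrays a day limit the precision. Scanner files were not used here, so no detection call was made.

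Of 45101 probe sets, 64 array controls were left out. Of the 45037 others, 34945 had 1 symbol in the platform annotation, 932 several and 9160 none, and 34741 of those with 1 symbol matched the RefSeq table by gene identifier. A mean per day was fitted with lmFit and eBayes of limma 3.58.1 (R 4.3.3). Residual degrees of freedom were 6 and prior ones 2.19. Tests were two-sided, with Benjamini-Hochberg adjustment over all probe sets and a threshold of 0.05. Pairs of Sox genes were tested by exact permutation of the one-way F statistic over 280 splits, adjusted over 8 pairs. In simulated data for day 30 against day 10 with 45037 probe sets, 66 of 100 probe sets with a 2-fold change and 90 of 100 with a 4-fold change were recovered, and 10 of the 166 calls were false. Far fewer probe sets were changed there than the 6813 that passed in the real comparison, and no simulated array stood apart. These rates therefore check the code and do not give the power of the real comparison. The rule for named genes takes all 10 Sox genes with every probe set that has their symbol, of which those not discussed singly are given by counts and ranges, up to 4 genes per list in order of adjusted p and the 2 genes most like each Sox gene that passed the moderated F test over all days. Col2a1, Cdh5, Pecam1, Emcn, Tie1, Hbb-y and Hbb-bh1 were named outside this rule. Deviations of same-numbered arrays from their day means correlated at 0.19, 0.50 and 0.35 between day 20 and day 30 (other arrays of these days -0.45 to 0.18), and between -0.22 and 0.15 for pairs with day 10. The labels do not explain the numbers, so a pairing of day 20 with day 30 only was read from these same values. It is not known to be real, and fits that use it add no separate evidence. The blocked fits are given where they change a call. The main fit and the exact permutation of pairs of Sox genes did not use this pairing and treat the 9 arrays as independent. Alternatives changed the normalization, the filter on dim probe sets, the unit and samples of the fit, the variance model and the replicate block, and left out each array. Promoters came from RefSeq.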

Additional observations from a re-analysis of the deposited data

How the results depend on the processing

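Sox11 and Sox9 passed between day 30 and day 10 in all 18 alternatives. Over all probe sets, the count passing between day 20 and day 10 was 4062 as reported, 2545 and 2370 in fits over genes (brightest probe set, mean of probe sets), which test fewer features, 2105 with only the 2 days compared and 10899 with array weights. Between day 30 and day 20 it was 61 as reported, 5, 279 and 102 with 2 days, array weights and a trend with robust prior, and 2 with the replicate block. Between day 30 and day 10 it was 6813 as reported, and 3841, 3760, 4318 and 11501 with brightest probe sets, mean of probe sets, 2 days and array weights. Of the 10 Sox genes, 1 (Sox11) in place of 0 passed between day 30 and day 20 with dim probe sets left out, in both fits over genes, with array weights and with the trend, and 4 in place of 2 passed between day 30 and day 10 with array weights (Sox11, Sox12, Sox9, Sox18). With the mean of probe sets 3 pairs passed in place of 5. The cause of these shifts was not tested, apart from the smaller number of features or arrays.

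Leaving out single arrays gave 0 to 2 Sox genes between day 20 and day 10, 2 to 5 between day 30 and day 10 (5 without day 10 replicate 1: Sox11, Sox12, Sox9, Sox17 and Sox18), 1 to 3 over all days where 2 were reported, and 2 to 6 pairs. All probe sets gave 1427 to 8493 between day 20 and day 10, 6 to 98 between day 30 and day 20, and 4168 to 9163 between day 30 and day 10, each highest without day 10 replicate 3. Differences that changed sign, none of which had passed except that of Epcam, were those between day 30 and day 10 of Sox10 (-0.036) and Epcam (-0.0014) with the mean of probe sets, Sox8 (-0.070) with array weights, Sox6 (0.020) without day 10 replicate 3 (-0.58 to 0.020 over single arrays left out) and Sox9 1433889_at (-0.0017) without day 30 replicate 2 (-0.0017 to 0.073). Between day 20 and day 10 they were Sox9 1451538_at (-0.087) and 1424950_at (-0.033) with array weights, and the latter without day 10 replicate 3 (-0.10 to 0.57 over single arrays). The pair Sox7 and Sox17, at 0.00, gave -0.11, -0.06 and -0.08 without day 10 replicate 2, day 30 replicate 1 and day 30 replicate 2 (highest 0.14).

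With the replicate block, the Sox genes passing were 1, 0 and 2 for day 20 against day 10, day 30 against day 20 and day 30 against day 10, as without it. With only day 20 and day 30 and the replicate block, an alternative chosen after the data were seen, 1 Sox gene (Sox9) and 159 of all probe sets passed. With dim probe sets left out, Sox7, Sox8, Sox17 and Sox18 were not among the features tested, so the Sox counts in that setting do not cover them. Sox2, Hhex, Foxd3 and S100b, among other genes of the lists, were left out there too. Another scaling of the arrays moved the median difference of all probe sets by less than 0.1.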
